A study of Rattus norvegicus with 24 samples.

Results

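The solute carrier genes that move amino acids across membranes were described in the testis of Fisher 344 rats given dibutyl phthalate (DBP), a plasticizer whose fetal exposure lowers testicular testosterone and impairs masculinization in rats. They were taken by symbol: every gene of the Slc1, Slc3, Slc6, Slc7, Slc36, Slc38 and Slc43 families with a probe set of a single gene symbol, without Slc7a11 and Slc7a4, each read by its brightest probe set over the 24 arrays. The rule gave 51 genes of 14217 named on the array. One of them, Slc7a6os, is an opposite-strand gene and no transporter, so 50 genes are counted below. The Slc6 family also holds carriers of monoamines (Slc6a2, Slc6a3 and Slc6a4) and of creatine (Slc6a8), which the symbols bring in.

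Each of 6 groups has 4 arrays. Dams were gavaged daily from gestational day 12 to 20 with 50 mg/kg DBP or with corn oil alone. In the first pair of groups, fetal testes were taken on gestational day 20 (GD20) from 4 DBP dams, 6 hours after the last dose, and from 4 oil dams, of which dam 2 is labelled as a pool. In the other 4 groups, male offspring received a second gavage of 500 mg/kg DBP or of corn oil on postnatal day 35 (PND35), and the testis was collected 6 hours after that dose. These groups are named by fetal and then postnatal treatment as DBP-DBP, DBP-oil, oil-DBP and oil-oil. All animals received the corn oil vehicle at every dosing. Which litter a pup came from is not given in the labels.

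Amino acid carriers feed protein synthesis, the glutamate and glutamine cycle, osmolyte uptake and the sensing of nutrients by mTORC1, the kinase complex on the lysosome. They work by a few mechanisms: Slc1 carriers move glutamate or exchange small neutral amino acids with sodium, Slc6 and Slc38 carriers import with sodium, Slc36 carriers with protons, and Slc43 carriers by facilitated diffusion. The Slc7 family splits into cationic carriers that act alone and light chains that need a heavy chain, Slc3a1 or Slc3a2, to reach the membrane. In the testis, Sertoli cells stand between the blood and the germ cells behind their tight junctions, so the supply of amino acids to spermatocytes and spermatids runs through carriers.

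The deposited values are linear intensities, scaled by the authors so that the trimmed mean of every array was 500.135 to 500.194, and array medians spanned 165 to 175.1 units at GD20 and 100.8 to 114.1 units at PND35. The number of arrays limits the precision. Between 6 and 11 of the 50 genes had a mean intensity under 16 in a group, and these dim genes carry little information. Summed markers of Sertoli cells lay between 40160 and 68620 on all arrays, and markers of adrenal gland and kidney between 51.94 and 286.3, which fits testis at both ages. Spermatid markers lay between 71270 and 116700 at PND35. At GD20 their sum was 3944 in DBP dam 21 and 648.6 in DBP dam 19, against 322.4 to 367.6 in the oil testes. The source of this spermatid signal in fetal samples was not tested. Spike-in transcripts, added before labelling, split the arrays into a low and a high class. At GD20, DBP dams 19 and 21 were low and the other 6 arrays high. At PND35, all DBP-DBP arrays and DBP-oil pups 132 and 134 were high, and all other arrays were low. Since all this is whole tissue, fewer cells of a type and less RNA per cell cannot be told apart.

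**Figure D1:**
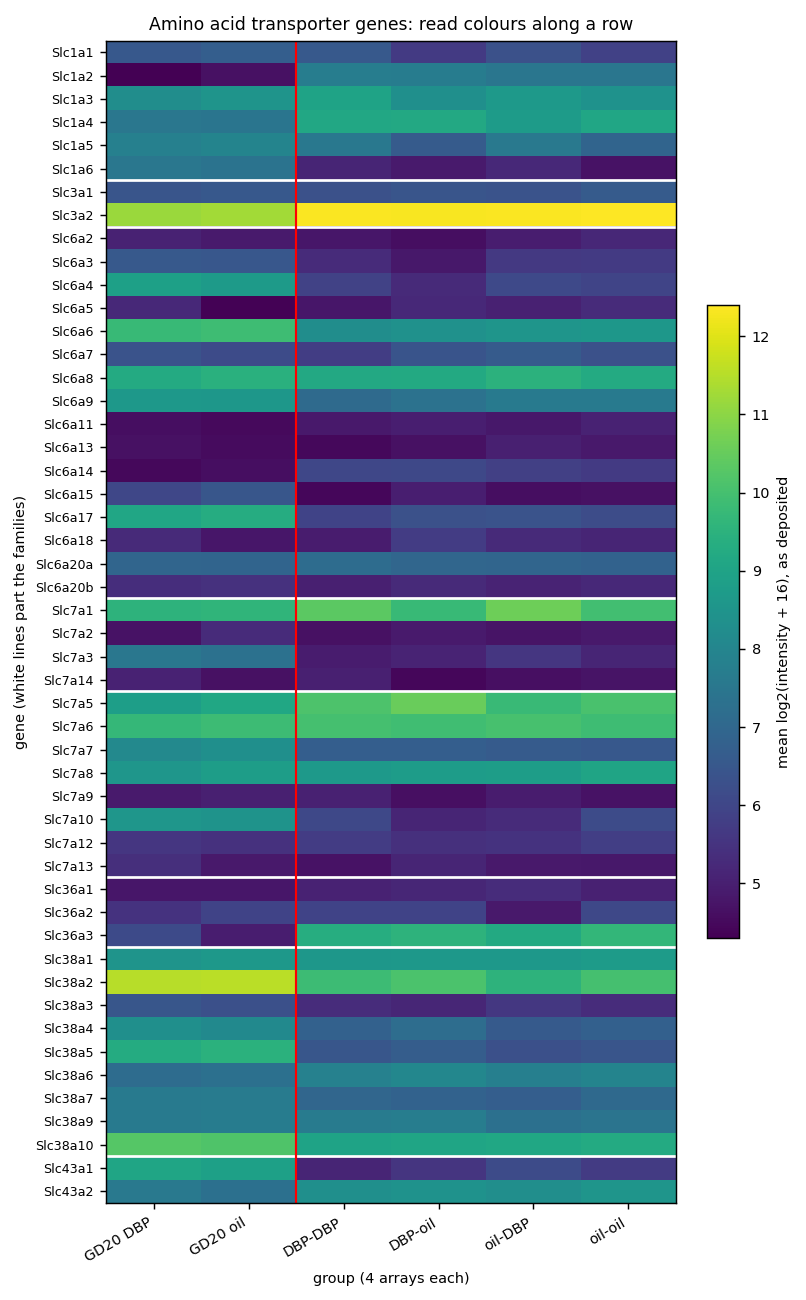
Mean log2(intensity + 16) of the 50 genes (rows, by family) in the 6 groups of 4 arrays (columns, GD20 left of the red line and PND35 right of it). Colours are comparable along a row only, since probe sets differ in brightness for technical reasons, and the age boundary shows wider steps than the exposures do.

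The first question was what a gavage of 500 mg/kg DBP did at PND35 within 6 hours. Slc7a1, the main carrier of arginine and lysine, and Slc1a5, a sodium-dependent exchanger of glutamine and other neutral amino acids, rose in both settings, after fetal DBP and after fetal oil. Slc1a3, a glutamate carrier, rose after fetal DBP. Slc38a2, a sodium-coupled importer of small neutral amino acids, Slc36a3, a member of the proton-coupled family, and Slc36a2, a proton-coupled carrier of proline and glycine, fell after fetal oil. Of the 50 genes, 3 rose and 0 fell in DBP-DBP against DBP-oil testes (6%), where 5.23% of all probe sets passed an adjusted p of 0.05, 3.64% higher and 1.58% lower. In oil-DBP against oil-oil testes 2 rose and 3 fell (10%), where 8.92% of all probe sets passed, 4.77% higher and 4.15% lower. Over all named genes, each read by its brightest probe set, 7.33% passed after fetal DBP and 12.2% after fetal oil. The share of carriers called at this threshold was thus close to the background in both settings. An unadjusted p under 0.05 was found for 8 carriers (16%) after fetal DBP, against 18.7% of all named genes. After fetal oil it was found for 8 carriers (16%), against 31.6% of all named genes, a smaller share than the background. The median log2 difference of the carriers was -0.09 after fetal DBP and -0.11 after fetal oil, against -0.07 and -0.11 over all named genes.

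Slc7a1 had 1170, 1180, 1520 and 1300 units of intensity in DBP-DBP testes, against 744, 834, 894 and 943 in DBP-oil testes. It had 1270, 1950, 1440 and 1600 in oil-DBP testes, against 895, 885, 1060 and 1090 in oil-oil testes. Every array with postnatal DBP lay above every array with postnatal oil, whatever the fetal treatment. The difference on the log2(intensity + 16) scale was 0.57 ± 0.11 after fetal DBP (SE, adjusted p = 0.00217, 1.48-fold) and 0.59 ± 0.11 after fetal oil (adjusted p = 0.00126, 1.5-fold). Both settings gave nearly the same size, and the difference between them was -0.02 with a 95% interval of -0.34 to 0.30. A second, dimmer probe set of Slc7a1 also rose, by 0.58 ± 0.13 (adjusted p = 0.00835) after fetal DBP and by 0.54 ± 0.13 (adjusted p = 0.0112) after fetal oil. The dimmest probe set, at a mean intensity of 28.4, passed in neither (0.97 and -0.21), and averaging all 3 ended the call after fetal oil (log2 0.30, adjusted p = 0.178). Once the spike-in class entered the model, the rise after fetal DBP was 0.49 (adjusted p = 0.0529).

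The start of Slc7a1 is shown because this gene rose in both settings with 2 of its probe sets, beside that of Slc38a2, which fell after fetal oil. Both are the 300 bases from 250 before to 50 after the gene start in RefSeq (build GRCr8), 5′ to 3′ on the gene's strand. The Slc7a1 window is chr12:11664238-11664537 on the plus strand and that of Slc38a2 is chr7:129742570-129742869 on the minus strand. Slc38a2 was added after its values were seen. Capitals mark matches to the motifs searched, on both strands.
Slc7a1: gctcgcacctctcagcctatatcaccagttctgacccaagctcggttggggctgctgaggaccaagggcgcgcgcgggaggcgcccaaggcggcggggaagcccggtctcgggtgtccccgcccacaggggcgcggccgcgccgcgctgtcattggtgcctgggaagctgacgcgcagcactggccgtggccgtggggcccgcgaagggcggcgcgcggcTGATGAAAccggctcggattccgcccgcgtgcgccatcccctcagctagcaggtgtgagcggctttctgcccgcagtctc
Slc38a2: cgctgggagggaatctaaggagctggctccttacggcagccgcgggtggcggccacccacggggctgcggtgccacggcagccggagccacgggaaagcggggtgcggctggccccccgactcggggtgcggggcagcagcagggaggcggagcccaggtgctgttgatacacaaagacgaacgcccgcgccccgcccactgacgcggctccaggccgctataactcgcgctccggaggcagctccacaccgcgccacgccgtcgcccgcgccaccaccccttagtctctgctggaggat
The motifs were TGANTCA (AP-1), TGATGNAA (the amino acid response element that ATF4 and C/EBP factors bind), TGACGTCA (CRE), TTGCNNAA (a C/EBP core, which overlaps part of the response element) and the NF-kB consensus, given by name since it holds degenerate bases. The Slc7a1 window held 1 match to TGATGNAA, on the plus strand with its first base 30 bases before the start. The Slc38a2 window held no match to any of the 5. Bases beyond the windows were not searched, so either gene may hold further matches elsewhere. Among 33469 RefSeq windows of this length, 3.98% held TGATGNAA, 7.33% TGANTCA, 1.83% TGACGTCA, 10.6% TTGCNNAA and 4.18% the NF-kB consensus. Of the 6 carriers that passed at PND35, 5 had a window, and apart from the match in Slc7a1 only Slc36a2 held one, to TTGCNNAA.

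Slc1a5 had 174, 165, 187 and 157 units in DBP-DBP testes, against 94.5, 76.6, 70.2 and 89.8 in DBP-oil testes. It had 125, 197, 154 and 248 in oil-DBP testes, against 121, 105, 94.3 and 93.5 in oil-oil testes. The groups did not overlap in either setting, though oil-DBP pup 105 at 125 lay only just above oil-oil pup 104 at 121. The rise was 0.91 ± 0.19 after fetal DBP (adjusted p = 0.0047, 1.87-fold) and 0.62 ± 0.19 after fetal oil (adjusted p = 0.0452, 1.54-fold). The second call is near the threshold: it was lost without the 2 arrays extracted with Trizol (0.73, adjusted p = 0.0538), with the extraction method as a covariate (0.62, adjusted p = 0.0526), with adjacent pup numbers as a block (adjusted p = 0.076), with only the 8 arrays compared (adjusted p = 0.136) and without any 1 of 6 single arrays. Without DBP-oil pups 132 and 134, the 2 of that group in the high spike-in class, the rise after fetal DBP was 0.83 (adjusted p = 0.0591).

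Slc1a3 had 457, 438, 618 and 489 units in DBP-DBP testes, against 336, 300, 345 and 251 in DBP-oil testes. It had 501, 313, 292 and 466 in oil-DBP testes, against 429, 376, 273 and 269 in oil-oil testes, where the groups overlapped. The difference was 0.65 ± 0.18 after fetal DBP (adjusted p = 0.042, 1.57-fold) and 0.14 ± 0.18 after fetal oil (adjusted p = 0.713). The 2 settings were not shown to differ (interaction 0.51 ± 0.26, adjusted p = 0.954). Neither other probe set of Slc1a3 passed after fetal DBP (-0.47 and 0.28), and the call was lost in 15 of 22 alternatives, among them the removal of single arrays of either group. Slc1a1, another glutamate and cysteine carrier, had 80.6 ± 28.1 units in DBP-DBP testes and 36.2 ± 9.65 in DBP-oil testes (SD, n = 4 each). No array overlapped, but the difference of 0.84 ± 0.26 did not pass (adjusted p = 0.0707). Its dimmer probe set, at a mean of 36.3 units, passed at 1.25 ± 0.36 (adjusted p = 0.0499). Slc1a1 passed with the mean over both probe sets (1.04, adjusted p = 0.0139), with the filter on dim probe sets (adjusted p = 0.0485) and without the intensity trend (adjusted p = 0.0372). It was at 0.65 (adjusted p = 0.458) once the spike-in class entered the model. After fetal oil Slc1a1 differed by 0.37 (adjusted p = 0.419), and by 1.015 ± 0.36 (adjusted p = 0.0877) with its dimmer probe set. The interaction for Slc1a1 was 0.47 (adjusted p = 0.954), so the 2 settings were not shown to differ.

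Slc38a2 had 779, 553, 930 and 698 units in oil-DBP testes, against 1190, 959, 894 and 1060 in oil-oil testes. Pup 115 of the DBP group, at 930, lay above pup 114 of the oil group, at 894. Slc38a2 fell by 0.54 ± 0.13 after fetal oil (adjusted p = 0.0118), and by 0.60 without the 2 Trizol arrays (adjusted p = 0.0084). The call was lost when only the 8 arrays compared were fitted (adjusted p = 0.0593). After fetal DBP it had 974, 944, 843 and 887 units in DBP-DBP testes, against 950, 1000, 1160 and 1250 in DBP-oil testes, and the difference of -0.27 ± 0.13 did not pass (adjusted p = 0.346). The interaction was 0.27 ± 0.19 (adjusted p = 0.954), so the 2 settings were not shown to differ.

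Slc36a3 had 750, 617, 438 and 541 units in oil-DBP testes, against 933, 1000, 624 and 695 in oil-oil testes, a fall of 0.52 ± 0.16 (adjusted p = 0.0411) with overlapping groups. It had 654, 685, 635 and 584 in DBP-DBP testes, against 710, 839, 716 and 620 in DBP-oil testes (-0.18 ± 0.16, adjusted p = 0.668). The call was lost in 11 of 21 alternatives, and without the 2 Trizol arrays the difference was -0.34 (adjusted p = 0.252). Slc36a2 is dim: 45.3, 8.94, 3.57 and 8.08 units in oil-DBP testes, against 62.1, 58.1, 49.5 and 34.8 in oil-oil testes. Pup 105 stood with the oil-oil arrays and the other 3 lay far below them. The fall of 1.25 ± 0.32 passed (adjusted p = 0.0153) and was lost when any of the 3 low arrays was left out. Slc36a2 was level after fetal DBP, at 45.8 ± 12.4 units in DBP-DBP and 45.2 ± 7.13 in DBP-oil testes. Neither Slc36a3 nor Slc36a2 passed the test of an interaction, so the settings were not shown to differ for them.

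**Figure D2:**
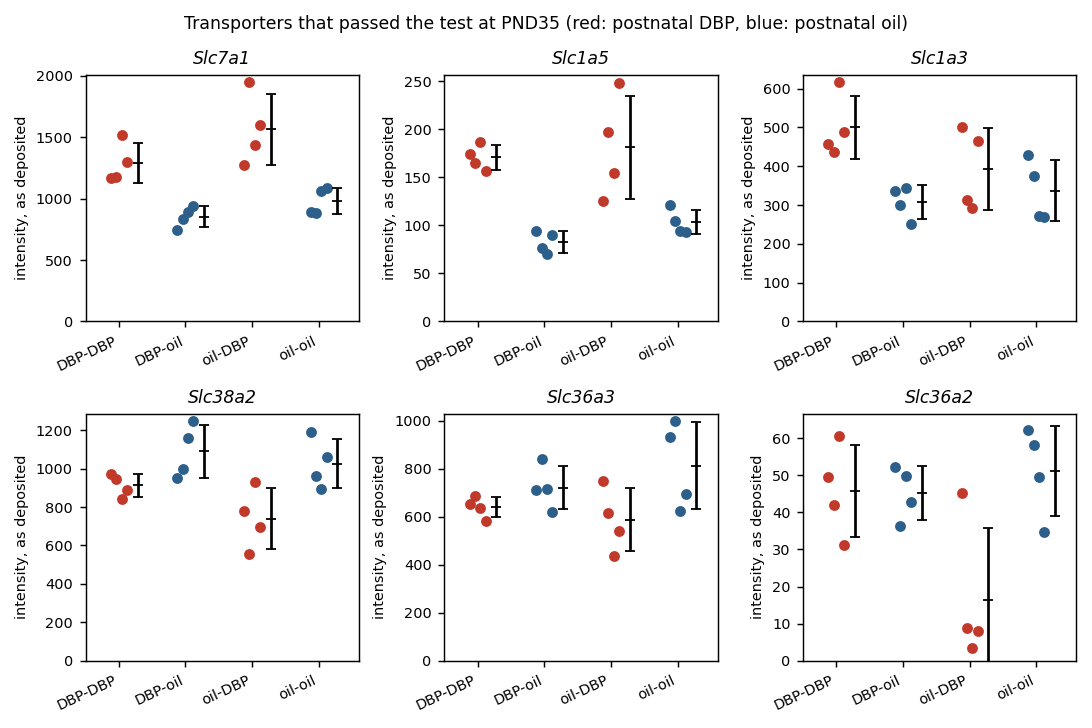
Deposited intensity of the 6 carriers that passed the test at PND35, 1 point per array (red with postnatal DBP, blue with postnatal oil), with the mean and SD of each group of 4 beside the points. Slc7a1 and Slc1a5 lie higher with postnatal DBP in both pairs of groups without overlap, whereas in oil-DBP testes Slc36a2 rests on 3 low arrays.

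The other carriers did not pass in either setting. Counted by arrays instead, 4 carriers lay wholly above and 1 wholly below in DBP-DBP against DBP-oil testes, where 12% of all probe sets did not overlap. In oil-DBP against oil-oil testes 3 lay wholly above and 0 below, where 10.8% did not overlap, and these were Slc7a1, Slc1a5 and the dim Slc43a1. Slc7a5, the light chain that imports leucine and other large neutral amino acids, had 1270, 1150, 991 and 1020 units in DBP-DBP testes, against 1340, 1310, 1610 and 1620 in DBP-oil testes. It had 972, 785, 947 and 746 in oil-DBP testes, against 1250, 1390, 926 and 781 in oil-oil testes. The difference of -0.42 ± 0.15 after fetal DBP came without overlap and missed the threshold (adjusted p = 0.123; 0.0176 with only the 8 arrays compared), as did that of -0.36 ± 0.15 after fetal oil (adjusted p = 0.132). Its partner Slc3a2, the heavy chain of several light chains, had 5220 ± 143 units in DBP-DBP against 5080 ± 169 units in DBP-oil testes, and 5230 ± 310 in oil-DBP against 5370 ± 381 in oil-oil testes. Its 95% intervals ran from -0.14 to 0.17 after fetal DBP and from -0.26 to 0.05 after fetal oil. Slc1a4, an exchanger of alanine, serine and cysteine, differed by -0.07 ± 0.15 after fetal DBP and -0.41 ± 0.15 after fetal oil (adjusted p = 0.899 and 0.108). Among the light chains Slc7a6, Slc7a7 and Slc7a8, which carry cationic or neutral amino acids, differences ran between -0.29 and 0.09. The taurine carrier Slc6a6, the creatine carrier Slc6a8 and the glycine carrier Slc6a9 ran between -0.27 and 0.16 by their brightest probe sets. A second probe set of Slc6a8, at a mean of 297 units, was at 0.44 ± 0.18 after fetal DBP (adjusted p = 0.226). After fetal oil it was at 0.56 ± 0.18 (adjusted p = 0.0583). Other probe sets of Slc6a6 and Slc6a9 ran between -0.215 and 0.388, and none passed. By their brightest probe sets, Slc38a1 and Slc38a5, both glutamine importers of the sodium-coupled family, ran between -0.23 and -0.06. Slc36a1, which exports amino acids from lysosomes, ran between -0.12 and 0.21, and Slc43a2 between -0.28 and -0.12 by its brightest probe set. Other probe sets of Slc38a1 ran between -0.171 and 0.472. That of Slc43a2 was at -0.025 after fetal DBP and -0.244 after fetal oil, and none of these passed. The cationic carriers Slc7a2 and Slc7a3 are dim at PND35 (group means of 11.2 to 38.7 units) and differed by -0.26 to 0.39 with standard errors of 0.41 and 0.46.

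**Figure D3:**
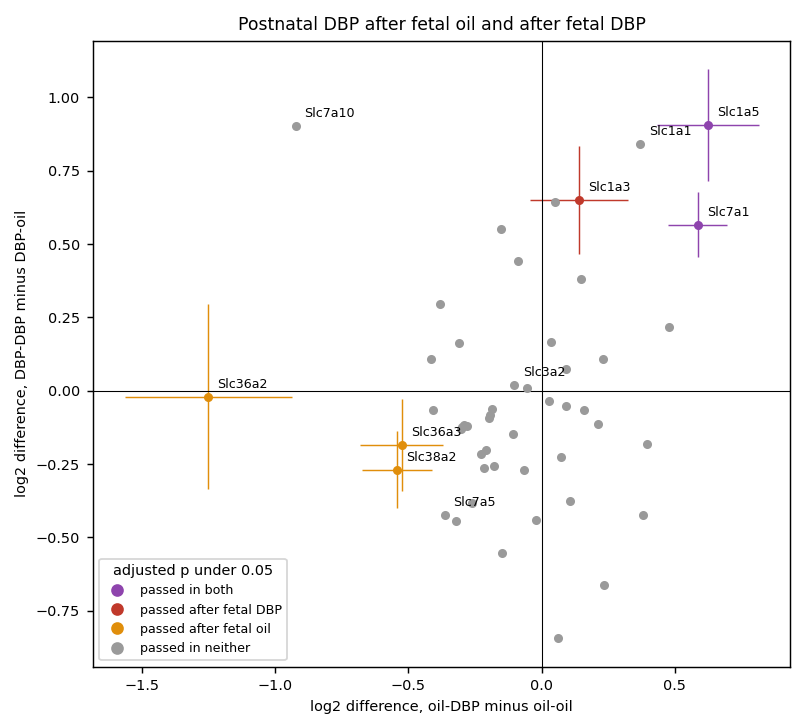
Log2 differences of the 50 carriers for DBP-DBP minus DBP-oil testes (vertical) and oil-DBP minus oil-oil testes (horizontal), with SE bars for those that passed in either. Slc7a1 and Slc1a5 are the 2 that passed in both, at 0.57 and 0.91 after fetal DBP and 0.59 and 0.62 after fetal oil.

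Cell type markers moved with the same postnatal contrasts, where 7.33% of named genes passed after fetal DBP and 12.2% after fetal oil. Of 5 peritubular myoid markers, 4 rose after fetal DBP and 3 after fetal oil, with summed levels of 4278 to 4558 in DBP-DBP against 2484 to 3681 in DBP-oil testes, and of 4159 to 4851 in oil-DBP against 2932 to 3136 in oil-oil testes. Of 3 neutrophil markers, 2 rose in both, with sums of 557.5 to 3885 in DBP-DBP against 38.5 to 132 in DBP-oil testes, and of 299.1 to 1848 in oil-DBP against 12.13 to 77.45 in oil-oil testes. Of 8 markers of macrophages and leukocytes, 2 rose and 0 fell after fetal DBP and 1 rose and 1 fell after fetal oil. Of 7 spermatid markers, 0 passed after fetal DBP (sums of 76860 to 85620 in DBP-DBP against 78750 to 103300 in DBP-oil testes) and 4 fell after fetal oil (71270 to 106900 in oil-DBP against 88370 to 116700 in oil-oil testes). Of 8 Leydig cell markers, 1 fell after fetal DBP, and 3 fell and 1 rose after fetal oil. Markers of spermatocytes, of gonocytes and spermatogonia, of adrenal gland and kidney, and of adipose tissue held 0 calls in both settings. Sertoli markers held 0 calls after fetal DBP and 2 rises of 9 after fetal oil. Of 5 endothelial markers, 1 rose after fetal DBP and 1 fell after fetal oil, and of 3 blood markers 1 fell after fetal oil. The part of these shifts in the carriers' differences was not tested.

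Genes that act on amino acids beside the carriers were counted from lists, to be read against the 7.33% of named genes that passed after fetal DBP and the 12.2% after fetal oil. In the list of the amino acid response and ATF4 targets, with 23 of 24 genes measured, 3 rose and 4 fell after fetal DBP, and 2 rose and 5 fell after fetal oil. Atf4, the transcription factor itself, rose by 0.46 ± 0.10 (adjusted p = 0.00626) and 0.69 ± 0.10 (adjusted p = 8.93e-05) after fetal DBP and after fetal oil, and Cebpb, a factor that pairs with it, by 1.39 ± 0.25 and 1.75 ± 0.25. Enzymes of serine and proline synthesis fell in both, and the value after fetal DBP stands first for each: Phgdh by 0.81 ± 0.15 and 0.81 ± 0.15, Psat1 by 0.52 ± 0.10 and 0.34 ± 0.10, and Aldh18a1 by 0.76 ± 0.13 and 0.95 ± 0.13. Asns, asparagine synthetase, fell by 0.40 ± 0.11 after fetal oil (adjusted p = 0.0306). Members of the list moved in both directions. Of 19 cytosolic aminoacyl-tRNA synthetases, 0 passed after fetal DBP and 2 fell after fetal oil (Kars1 and Qars1). Of 26 genes of amino acid sensing upstream of mTORC1, 2 fell after fetal DBP, and 1 rose and 4 fell after fetal oil. Sesn1, a sestrin of the same pathway, fell by 0.68 ± 0.15 after fetal DBP and by 0.87 ± 0.15 after fetal oil.

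Of 16 amino acid carriers of other families, 0 passed after fetal DBP and 3 mitochondrial ones fell after fetal oil: Slc25a12 by 0.76 ± 0.20 and Slc25a13 by 0.62 ± 0.16, which carry aspartate and glutamate, and Slc25a18 by 0.58 ± 0.15, which carries glutamate. Of 13 genes of glutamine and glutamate metabolism, 2 rose after fetal DBP, and 3 rose and 1 fell after fetal oil. Ppat, which uses glutamine in purine synthesis, rose by 0.53 ± 0.13 after fetal DBP and 0.61 ± 0.13 after fetal oil, as did Gfpt2, which uses it to make hexosamines (1.12 ± 0.32 and 1.16 ± 0.32 in the same order). Of 20 genes of arginine, ornithine and polyamine metabolism, 1 rose and 2 fell after fetal DBP, and 2 rose and 1 fell after fetal oil. Sat1, which acetylates polyamines, rose by 0.93 ± 0.13 after fetal DBP and 0.48 ± 0.13 after fetal oil. Oat, which breaks ornithine down, fell by 0.50 ± 0.10 after fetal DBP and 0.64 ± 0.10 after fetal oil. Of 12 genes of branched-chain, taurine and serine-glycine metabolism, 1 rose and 1 fell after fetal DBP, and 2 rose and 1 fell after fetal oil. Cdo1, the dioxygenase that opens taurine synthesis from cysteine, had 1640 units in DBP-DBP against 514 in DBP-oil testes (log2 1.63 ± 0.11), and 1880 in oil-DBP against 612 in oil-oil testes (1.53 ± 0.11).

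The next question was whether fetal DBP left a mark on the carriers at PND35. In DBP-oil against oil-oil testes, 0 of 50 carriers passed with limma, and 0.00322% of all probe sets did. An unadjusted p under 0.05 was found for 3 carriers (6%), against 6.44% of all named genes. By arrays, Slc38a4 lay wholly above and Slc6a3 wholly below, where 4.12% of all probe sets did not overlap. In DBP-DBP against oil-DBP testes 0 carriers and 0% of all probe sets passed. An unadjusted p under 0.05 was found for 11 carriers (22%), against 9.75% of all named genes. By arrays, 2 carriers lay wholly above (Slc1a4 and Slc7a5) and 3 wholly below (Slc43a1, Slc6a7 and Slc6a8), where 5.17% of all probe sets did not overlap. That contrast follows the spike-in classes exactly, so fetal treatment and spike-in class cannot be told apart in it. Slc43a1, a facilitated carrier of large neutral amino acids, had 29.5, 20.9, 21.7 and 8.5 units in DBP-DBP testes, against 54.1, 73, 46 and 47.7 in oil-DBP testes. The 2 groups did not overlap, at a difference of -0.97 ± 0.31 (adjusted p = 0.336). Slc7a5 had 1470 ± 166 units in DBP-oil testes and 1090 ± 280 in oil-oil testes (0.44 ± 0.15, adjusted p = 0.427), and 1110 ± 128 in DBP-DBP against 862 ± 114 in oil-DBP testes (0.38 ± 0.15, adjusted p = 0.432). Slc36a2 differed by 1.09 ± 0.32 in DBP-DBP against oil-DBP testes (adjusted p = 0.292), and it passed once oil-DBP pup 105 was left out.

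No carrier passed the test of an interaction between both exposures: 0 of 50 and 0% of all probe sets by limma. An unadjusted p under 0.05 was found for 3 carriers (6%), against 4.58% of all named genes. Slc7a10, a carrier of small neutral amino acids, had the lowest p of the 50. It had 68.6, 35.8, 52.7 and 50.2 units in DBP-DBP testes, against 20.3, 4.02, 49 and 16.7 in DBP-oil testes. It had 36.4, 4.94, 25.1 and 36.1 in oil-DBP testes, against 81.5, 56.9, 17.2 and 91.4 in oil-oil testes. The interaction was 1.83 ± 0.57 (adjusted p = 0.954), with overlapping arrays in both pairs.

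At GD20 the question was what 50 mg/kg DBP to the dam did in the fetal testis. Of the 50 carriers, 0 passed with limma, where 0.441% of all probe sets passed. An unadjusted p under 0.05 was found for 6 carriers (12%), against 13% of all named genes. The median difference was -0.04, against 0.02 over all named genes. Slc36a3 had 38.3, 54.7, 90.7 and 39.4 units in DBP testes, against 25.7, 7.82, 15.6 and 13.6 in oil testes, a difference of 1.15 ± 0.28 (adjusted p = 0.126). No array overlapped, and all values were dim. Summed spermatid markers were 375.9, 301.4, 648.6 and 3944 in the same DBP testes, against 352.7, 367.6, 334.9 and 322.4 in the oil testes, in the same order of dams. Dam 19, highest in Slc36a3, was second in these markers, and dam 21 was highest in them. Dams 19 and 21 are also the arrays of the low spike-in class at GD20. The part of the spermatid markers in the difference was not tested. The glycine carrier Slc6a5 had 23.2, 22.3, 25 and 17.7 units in DBP testes, against 3.04, 4.18, 2.6 and 9.23 in oil testes, without overlap and near the floor of the scale (0.88 ± 0.22, adjusted p = 0.128).

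Slc38a5, a glutamine importer, had 599, 605, 626 and 619 units in DBP testes, against 707, 668, 699 and 711 in oil testes (-0.18 ± 0.07, adjusted p = 0.304). Slc7a7, a light chain that exports cationic amino acids, had 266, 247, 272 and 247 units in DBP testes, against 340, 303, 295 and 302 in oil testes (-0.25 ± 0.10, adjusted p = 0.346). These 4 genes were the carriers whose DBP and oil arrays did not overlap, 4 of 50, where 7.2% of all probe sets did not overlap. Slc7a1 had 733 ± 128 units in DBP testes and 750 ± 23.9 in oil testes, with a 95% interval of the log2 difference from -0.28 to 0.18. Slc1a5 had 211 ± 38.1 in DBP testes and 235 ± 27.4 in oil testes, with an interval of -0.47 to 0.17. Both intervals lie below the rises of these genes after the gavage at PND35, but age, dose and duration differ and the contrasts were not tested against each other. Slc3a2 had 2320 ± 141 units in DBP testes and 2460 ± 149 in oil testes. In the list of arginine, ornithine and polyamine metabolism, 2 of 20 genes passed at GD20, Ass1, which makes the precursor of arginine, at 0.82 ± 0.15 (adjusted p = 0.0342) and Gatm, which uses arginine to make the precursor of creatine, at 0.73 ± 0.09 (adjusted p = 0.00393). Got1, a transaminase of aspartate and glutamate, rose by 0.68 ± 0.10 (adjusted p = 0.0169), as the 1 of 13 genes of glutamine and glutamate metabolism that passed. The lists of ATF4 targets, aminoacyl-tRNA synthetases, mTORC1 sensing, carriers of other families, and branched-chain, taurine and serine-glycine metabolism held 0 calls at GD20. Over all named genes 0.556% passed.

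Between the oil controls of the 2 ages, most carriers differed. Of 50, 25 were higher and 14 lower at PND35 (78%), where 67.4% of all probe sets passed, 41.9% higher and 25.5% lower. Over all named genes 75.9% passed, 49.2% higher and 26.7% lower, close to the share of carriers. This comparison depends on scaling, since array medians at the 2 ages differ: centring on the median placed every gene 0.65 log2 units higher than the deposited scale. As deposited, 10 were higher and 18 lower (64% of all probe sets passed), after quantile normalization 18 and 14 (61.7%), and after centring on the 75th percentile 13 and 15 (62.8%). The median of all probe sets was 0.34 when centred on the median and -0.32 as deposited. Under all 4 scalings 10 carriers were higher and 14 lower, and the sign of 9 depended on the scaling. By deposited intensity, 8 carriers lay wholly above and 17 wholly below at PND35, where 60.1% of all probe sets did not overlap. RNA at the 2 ages was extracted with different kits. Mean log2 spike-in levels were 7.74 to 8.033 on the GD20 oil arrays and 5.747 to 5.902 on the PND35 oil-oil arrays. Only the PND35 controls had the postnatal gavage of corn oil, and arrays are labelled by pup at PND35 and by dam at GD20. Age cannot be told apart from any of these. The cell makeup differs too: summed spermatid markers were 88370 to 116700 at PND35 against 322.4 to 367.6 at GD20.

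The carriers that rose at PND35 under all 4 scalings were Slc36a3, Slc1a2, Slc1a4, Slc43a2, Slc3a2, Slc6a14, Slc7a5, Slc6a5, Slc38a6 and Slc7a1. Slc36a3 had 933, 1000, 624 and 695 units in PND35 oil-oil testes, against 25.7, 7.82, 15.6 and 13.6 in GD20 oil testes, a rise of 5.37 ± 0.21 (adjusted p = 3.4e-11). Slc1a2, a glutamate carrier best known from astrocytes, had 106, 204, 184 and 168 units at PND35, against 6.03, 3.91, 31.4 and 3.44 at GD20 (3.47 ± 0.32, adjusted p = 3.61e-07). Neither gene's ages overlapped, and the rises were still 4.71 and 2.81 as deposited.

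Slc3a2, the heavy chain, had 5910, 5240, 5010 and 5320 units at PND35, against 2430, 2360, 2360 and 2670 at GD20. Its rise was 1.78 ± 0.06, with 1.12 as deposited and 0.793 after quantile normalization. Its light chain Slc7a5 rose with it, at 1250, 1390, 926 and 781 units at PND35, against 494, 571, 494 and 602 at GD20 (1.61 ± 0.15, and 0.96 as deposited). Slc1a4 rose by 2.28 ± 0.20 and Slc43a2, a facilitated carrier of large neutral amino acids, by 1.87 ± 0.18. Slc38a6 rose by 1.33 ± 0.17 and Slc7a1 by 1.03 ± 0.09. The rises of Slc6a14, a carrier of neutral and cationic amino acids (40.3 ± 22.2 units at PND35 against 8.30 ± 4.18 at GD20), and of Slc6a5 (28.2 ± 22.9 at PND35 against 4.76 ± 3.05 at GD20) come from dim values with overlapping arrays. Slc6a11, a carrier of GABA, was also among the 10 largest rises when centred on the median (1.22 ± 0.38) and did not pass under the other scalings.

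The 14 that fell under all 4 scalings include Slc43a1, Slc6a17, Slc38a5, Slc6a4, Slc1a6, Slc7a10, Slc7a3, Slc7a7, Slc6a15 and Slc38a2. Slc43a1 had 37.6, 40.8, 38.5 and 27.5 units at PND35, against 487, 491, 403 and 481 at GD20, and fell by 2.56 ± 0.17 (adjusted p = 7.22e-09). Slc43a1 and Slc43a2 are the 2 facilitated carriers of the Slc43 family, and by their brightest probe sets they moved in opposite directions between the ages. The dimmer probe set of Slc43a2 did not pass (0.31 ± 0.23, adjusted p = 0.235). Slc38a5 had 60.3, 70.8, 81.8 and 74.4 units at PND35, against 707, 668, 699 and 711 at GD20 (fell by 2.37 ± 0.13). Slc38a2 fell by 0.87 ± 0.08, with 1020 ± 128 units at PND35 and 2960 ± 131 at GD20.

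The serotonin carrier Slc6a4 fell by 2.10 ± 0.20 without overlap of arrays, with 47.5 ± 12.8 units at PND35 and 409 ± 49.9 at GD20. Slc1a6, a glutamate carrier, fell by 2.03 ± 0.29 and Slc7a10 by 1.65 ± 0.30. Slc7a3, a cationic carrier, fell by 1.53 ± 0.27 while the cationic carrier Slc7a1 rose. Slc7a7 fell by 1.17 ± 0.17 and Slc6a15, a carrier of branched-chain amino acids and proline, by 1.12 ± 0.31. The other 4 were Slc38a4 (-0.69 ± 0.17), Slc6a6 (-0.65 ± 0.11), Slc1a5 (-0.42 ± 0.16) and Slc38a10 (-0.27 ± 0.09). The fall of Slc1a5, at an adjusted p of 0.0349 when centred on the median, was lost without any 1 of 5 single arrays (adjusted p up to 0.113).

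Probe sets of 1 gene disagreed between the ages for several carriers, so these gene-level directions rest on the probe set chosen. Slc38a1 was 0.78 ± 0.11 higher at PND35 by its brightest probe set and fell by 1.53 ± 0.10 and 1.02 ± 0.29 by the other 2. Slc6a6 fell by its brightest probe set and rose by 0.57 ± 0.16 by the other. Slc6a17, a vesicular carrier of neutral amino acids, fell by 2.47 ± 0.16 by its brightest probe set and by 0.55 ± 0.22 by another, while 2 dim ones rose by 0.75 ± 0.26 and 0.65 ± 0.21. Slc1a3 was higher by 2 probe sets (0.59 ± 0.14 and 0.62 ± 0.24) and fell by 0.85 ± 0.25 by the third. Of the carriers named whatever their values, Slc7a6 (0.69 ± 0.08), Slc7a8 (0.86 ± 0.14), Slc6a8 (0.47 ± 0.11) and Slc36a1 (0.93 ± 0.23) were higher when centred on the median and did not pass as deposited. The other probe set of Slc6a8, at a mean of 297 units, was level when centred on the median (-0.02 ± 0.141, adjusted p = 0.907). By their brightest probe sets, Slc1a1, Slc6a9 and Slc7a2 did not pass when centred on the median (-0.19, -0.28 and 0.22). Slc1a1 and Slc6a9 were lower as deposited (-0.84 and -0.93). The dimmest probe set of Slc6a9, at a mean of 26.1 units, fell by 1.048 ± 0.245 when centred on the median (adjusted p = 0.00193). Its remaining probe set did not pass (0.413 ± 0.221, adjusted p = 0.113). Slc7a6os, the opposite-strand gene left out of the counts, had 900 ± 77.5 units at PND35 and 540 ± 12.9 at GD20 and passed in no DBP contrast.

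**Figure D4:**
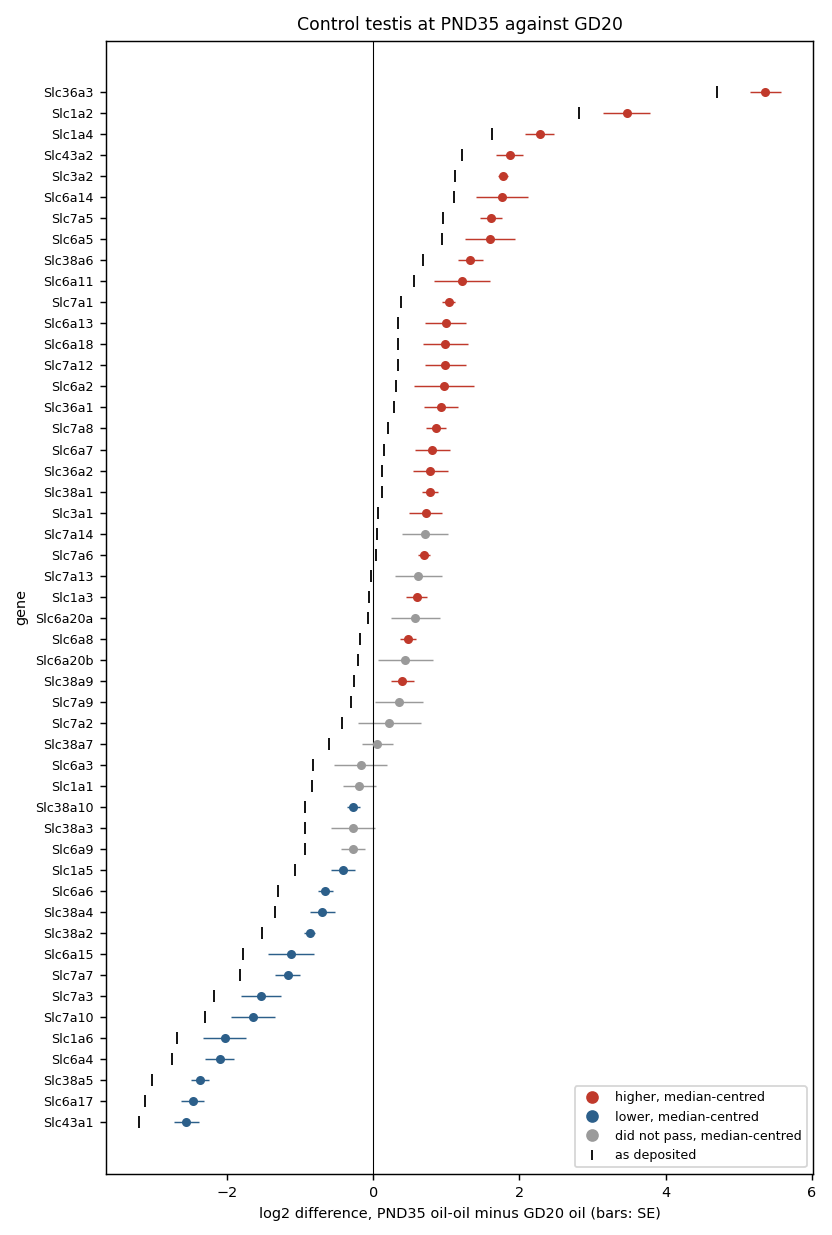
Log2 difference of each carrier between PND35 oil-oil and GD20 oil testes, centred on the median (points with SE, coloured by the test) and as deposited (black ticks), sorted by size. Ticks lie 0.65 below the points throughout, and Slc36a3 at the top (5.37) and Slc43a1 at the bottom (-2.56) keep their sign on both scales.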

How the data were processed

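Testis RNA was measured on Affymetrix Rat230_2 arrays, 24 in 6 groups of 4, 1 array per sample. The deposited files hold linear intensity per probe set, scaled by the authors to a trimmed mean (2%) of 500.135 to 500.194, as the values show. The submitters' processing notes name GCOS 1.0; how probes were summarized is not stated in the labels. Extraction, per the labels, used Trizol with a micro kit at GD20, and at PND35 a column kit for 14 arrays and Trizol with clean-up for 2 (oil-oil pup 104 and oil-DBP pup 115). No 2 arrays held identical values. The deposited intensities carry no counts or detection calls, so probe sets not above background could not be marked.

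A pseudocount of 16 was added before log2, which understates changes of dim genes. GD20 arrays were used as deposited (medians within 0.079 log2 units). PND35 arrays were centred on the median (span 0.155), and so were the arrays of the age comparison (span 0.706), since 0.1 was the limit set. Of 31099 probe sets, 57 controls were left out and 31042 tested. Among them 20826 have 1 gene symbol, 436 several and 9780 none, and 20758 of the first matched the RefSeq gene table. Of the 51 genes found by the rule, 40 had a RefSeq promoter entry.

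Every adjusted p in the text comes from limma 3.58.1 (R 4.3.3, two-sided, lmFit then eBayes with trend), adjusted by Benjamini-Hochberg over all 31042 probe sets and a threshold of 0.05. PND35 groups were fitted together, GD20 groups alone, and the oil controls of the ages on their own. Nothing in the labels says which pups were littermates, so the p-values measure only the spread between these samples. The spike-in class of an array comes from the mean of 27 poly-A control probe sets, split at the widest gap within an age. On simulated data over 31042 probe sets, with known log2 changes of 1 and 2, 66% and 91% were recovered for GD20, 60% and 92% for oil-DBP against oil-oil, and 56% and 89% for the ages. Changes under 1, such as those of most carriers called after DBP, were not simulated. Few probe sets were changed in each simulation, whereas 67.4% passed between the ages, so the rates for the ages do not carry over to the data.

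The carriers and gene lists were chosen with earlier results of these data known. Named carriers are those past the threshold in any DBP contrast, the 10 that rose most and the 10 that fell most between the ages, and 20 named whatever their values. Other genes were named after their values were seen. Alternatives changed the pseudocount, dim filter, trend, scaling, choice of probe set, covariates, arrays fitted, block and threshold, and left out each array in turn.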

Additional observations from a re-analysis of the deposited data

Results flagged for a closer look

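Within each of 300 sets of 4 arrays (50 carriers in 6 groups), the array farthest from the rest was tested with Dixon's gap-to-range ratio at the 95% level. It passed in 21 sets (7%), where chance gives about 5%, about 1 in 20.

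In DBP-DBP testes pup 135 was the distant array 4 times: Slc6a3 was 69.5 units there (14 to 15 on the other 3 arrays), Slc7a2 30.6 (3.23 to 6.96), Slc6a13 18.6 (2.67 to 3.38) and Slc6a6 199 (317 to 336). In DBP-oil testes pup 123 stood apart for 3 carriers, with Slc6a20a at 205 (81.1 to 94.4), Slc6a4 at 83.8 (6.84 to 16.5) and Slc7a9 at 36.9 (1.98 to 4). In the same group Slc38a3 was 72.7 in pup 127 (7.51 to 13.8) and Slc7a7 was 64.8 in pup 132 (98.4 to 103).

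In oil-DBP testes Slc36a2 was 45.3 in pup 105 (3.57 to 8.94), the array on which the fall of that gene after fetal oil is not seen. Pup 111 of that group had Slc3a1 at 112 (52 to 58.1) and Slc7a2 at 41.3 (4.19 to 5.7), and pup 115 had Slc6a4 at 20.1 (64.3 to 70.2) and Slc7a14 at 31.2 (2.82 to 5.06). In oil-oil testes Slc6a17 was 70.8 in pup 110 (51.4 to 53.4).

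At GD20, Slc1a3 was 360 in DBP dam 18 (264 to 280). Among the oil dams, Slc1a2 was 31.4 (3.44 to 6.03) and Slc43a1 403 (481 to 491) in dam 4, Slc38a7 was 146 (204 to 209) in dam 3, and Slc6a11 was 27.1 (1.58 to 2.87) and Slc36a1 16.1 (9.72 to 10.5) in dam 5.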

How the results depend on the processing

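No carrier was called under any alternative for DBP against oil at GD20 (19 alternatives), for DBP-oil against oil-oil testes (22) or for the interaction (29). In DBP-DBP against oil-DBP testes the count ranged from 0 to 1 as single arrays were left out, the 1 being Slc36a2 without oil-DBP pup 105. In oil-DBP against oil-oil testes, the 5 calls became 1 at a threshold of 0.01 (Slc7a1), 1 with only the 8 arrays compared (Slc7a1), 2 without the 2 Trizol arrays (Slc7a1 and Slc38a2), and 2 to 5 as single arrays were left out. In DBP-DBP against DBP-oil testes, the 3 calls became 1 with the spike-in class in the model (Slc1a5), and 2 whenever a single array was left out. They became 4 with the filter on dim probe sets (Slc1a1 added, higher) and 4 with only the 8 arrays compared (Slc7a5 added, lower). They became 1 without both DBP-oil arrays of the high spike-in class (Slc7a1), an alternative chosen after seeing the data. Of 22 alternatives for oil-DBP against oil-oil testes 14 stayed within 1.5 times the count reported, and of 23 for DBP-DBP against DBP-oil testes 21 did. Between the ages all 18 did (28 to 43 of 50 called, 36 to 39 without single arrays). In the age comparison the sign of 9 of the 50 carriers depended on the scaling. Among the named carriers that passed, the direction turned for 3: Slc1a3 (-0.06) and Slc6a8 (-0.18) as deposited, and Slc38a1 (-0.591) as the mean over all its probe sets; the other probe sets of Slc38a1 fell, and the deposited scale lies lower for every gene. No dam or pup number occurs in more than 1 group, so replicate numbers pair no samples; with a block of adjacent pup numbers, which the labels do not call pairs, Slc1a5 lost its call after fetal oil (adjusted p = 0.076). Differences of carriers under 16 units lie near the pseudocount and are understated.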
